A study of Mus musculus with 4 samples.

Results

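Injury-associated microglia genes are genes that brain-resident macrophages carry at higher levels after damage. Of the 31053 genes in the count tables, 10 were followed 1 by 1, namely Spp1, Gpnmb, Lpl, Lgals3, Fabp5, Cst7, Cd72, Itgax, Igf1 and Apoe. They were selected because their levels in microglia after transient middle cerebral artery occlusion (tMCAO) stood out from sham in these same libraries, so their differences from sham are given as a description without a test. All 10 had a row in the tables. The study sequenced single cells of the ipsilateral cerebral hemisphere of male mice that were 8 weeks old by the labels and C57/BL6 by the methods. There was 1 library from sham mice and 1 each from mice on day 1, day 3 and day 7 after tMCAO, a filament occlusion of the artery followed by reperfusion. The series text places the sham tissue at day 7 and a drawing of the design at day 0, so its time is uncertain, and the number of mice behind each library is not given in the sources used here. Mice were perfused, the hemisphere was digested with papain and cleared of myelin over Percoll, so the levels are those of cells that outlived dissociation. All 4 groups shared these steps. Without a second library per group, no difference between groups had a replicate check, and the intervals below cover counting error alone.

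Microglia are the resident macrophages of the brain tissue, whereas border macrophages live in the meninges, around vessels and in the choroid plexus. In damaged, demyelinated or degenerating tissue, microglia lower homeostatic genes such as P2ry12 and Tmem119 and raise a set of genes for lipid handling, lysosomal work, adhesion and secretion, in part through the lipid receptor Trem2. Several members of that set are not private to microglia. Apoe is a lipid carrier made by astrocytes and by many macrophages, Lgals3 and Gpnmb are common in macrophages that come from blood, and Fabp5 is a fatty acid binding protein of several cell types.

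The members lie on 9 chromosomes of GRCm38 by the GENCODE vM21 annotation. Spp1 is at chr5:104435118-104441050, Gpnmb at chr6:49036546-49070929, Lpl at chr8:68880491-68907448, Lgals3 at chr14:47367751-47386160, Fabp5 at chr3:10012548-10016607, Cst7 at chr2:150570415-150578944, Itgax at chr7:128129547-128150657 and Igf1 at chr10:87858265-87937042, all on the plus strand. Cd72 at chr4:43446462-43454628 and Apoe at chr7:19696109-19699188 are on the minus strand. Cd72 overlaps Tesk1 and Igf1 overlaps Igf1os on the opposite strand, and Spp1 overlaps the gene model Gm42793 on its own strand. By the methods the libraries were enriched for the 3′ ends of transcripts, and a gene's UMIs were counted together, so no isoform is told apart.

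The RefSeq promoter table of GRCm38.p6 held 8 of the 10 members, without Lpl and Fabp5, in 11 start windows. The 250 bases before the start were searched on both strands for GGAAGT, the letters of a PU.1-type motif (PU.1 is the factor that defines the macrophage lineage), for the AP-1 letters TGANTCA, for the E-box CACGTG and for TATAAA. Of 32851 such windows of all genes, 19.7% held GGAAGT, 6.75% TGANTCA, 6.02% CACGTG and 12.4% TATAAA. The 4 windows with GGAAGT, in capitals on either strand together with any other match, are shown because they hold these letters. No link of the letters with the members' levels was tested. These windows belong to Itgax, Cst7, Cd72 and Spp1. They are chr7:128129300-128129549 (plus strand), chr2:150570165-150570414 (plus strand), chr4:43454627-43454876 (minus strand) and chr5:104434861-104435110 (plus strand), in that order.
Itgax: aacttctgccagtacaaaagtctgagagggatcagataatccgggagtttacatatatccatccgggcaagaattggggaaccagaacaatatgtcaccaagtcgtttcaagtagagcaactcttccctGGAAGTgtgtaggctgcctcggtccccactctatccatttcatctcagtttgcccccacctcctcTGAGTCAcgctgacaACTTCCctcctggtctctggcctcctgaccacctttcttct
Cst7: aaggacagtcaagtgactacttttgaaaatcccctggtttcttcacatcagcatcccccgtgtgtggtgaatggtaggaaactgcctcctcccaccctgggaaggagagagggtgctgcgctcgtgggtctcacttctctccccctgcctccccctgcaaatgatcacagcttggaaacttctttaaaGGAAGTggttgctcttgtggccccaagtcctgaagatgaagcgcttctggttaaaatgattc
Cd72: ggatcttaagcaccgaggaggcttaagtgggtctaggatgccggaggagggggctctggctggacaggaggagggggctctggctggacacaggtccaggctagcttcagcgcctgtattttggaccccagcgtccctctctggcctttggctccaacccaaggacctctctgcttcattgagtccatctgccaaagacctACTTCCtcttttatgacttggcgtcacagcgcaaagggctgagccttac
Spp1: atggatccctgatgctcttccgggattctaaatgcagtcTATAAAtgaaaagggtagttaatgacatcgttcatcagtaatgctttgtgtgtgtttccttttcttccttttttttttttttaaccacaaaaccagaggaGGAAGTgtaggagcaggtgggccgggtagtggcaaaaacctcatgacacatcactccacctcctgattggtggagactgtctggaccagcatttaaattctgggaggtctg
The Itgax window held GGAAGT in both orientations and the AP-1 letters, and the Spp1 window also TATAAA. The Igf1 window held TGANTCA and one Apoe window TATAAA. The windows of Gpnmb and Lgals3, the other Spp1 window and the remaining Apoe windows held none of these letters. A match is a description of the letters, not a binding site.

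After removal of cells with under 200 or over 3000 genes or more than 10% of UMIs from mitochondrial genes, there were 7562 of sham, 13376 of day 1, 9378 of day 3 and 14044 cells of day 7, with 31155145 to 45258075 UMIs per library and median depths of 2508 to 3732 UMIs. Each cell was given a class by marker genes that did not include the members, and the classes are called by name with the ending -like. Microglia-like cells numbered 142 in sham, 531 at day 1, 379 at day 3 and 311 at day 7. Border macrophage-like cells numbered 45, 76, 26 and 25. Macrophage-lineage cells without enough markers of either kind, called unresolved, numbered 7, 61, 18 and 22. A level is the sum of a gene's UMIs in a class per 1000000 UMIs of that class (CPM), with an exact 95% Poisson interval. Between 33 and 88 cell barcodes were shared by pairs of libraries, and 0 of them were microglia-like in both libraries of a pair. Microglia-like cells held the complement genes C1qa, C1qb and C1qc at a summed 28467, 28397, 30626 and 24649 CPM in sham and at days 1, 3 and 7. P2ry12, one of the gate markers, was at 1886, 350, 1088 and 911 CPM.

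A few gated cells stood apart from the rest. When all cells were clustered without the members, 137, 518, 368 and 262 of the microglia-like cells of sham and days 1, 3 and 7 fell into the microglia cluster. At day 7, 16 other microglia-like cells fell into the cluster that held most border macrophage-like cells. These 16 cells had a median of 8581 UMIs, C1q genes at 15225 CPM against 26641 in the 262 cells, P2ry12 at 72.8 against 1095, Lyz2 at 18561 against 1279, the class II gene H2-Aa at 1675 against 4.47, Mmp12 at 925 against 2.23 and Ms4a7, a gene of border and blood-derived macrophages, at 918 against 25.7. Another 31 microglia-like cells of day 7 fell into a cluster that was not of macrophages, and all 33 cells outside both macrophage clusters together held the haemoglobin gene Hbb-bs at 58839 CPM and Ptgds at 11844 CPM. In sham, 4 microglia-like cells fell into the border macrophage cluster. Levels are therefore given both for all microglia-like cells and for those to which gate and cluster gave the same name, called doubly assigned below. That second set, like the genes used to describe the cells that it leaves out, was chosen after the values were seen. It also depended on the clustering. When cells were linked by the share of neighbours in common, 137, 519, 371 and 298 microglia-like cells fell into microglia clusters and 10 of day 7 into the border macrophage cluster. This second clustering left sham and days 1 and 3 close to the first, and its day 7 values are given beside each member.

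Apoe, the main lipid carrier of the brain, was the most abundant member and was higher at each later day. Microglia-like cells held 3588 CPM (3418 to 3764) in sham, 6669 (6564 to 6776) at day 1, 16201 (15985 to 16420) at day 3 and 40658 (40282 to 41037) at day 7. The ratios to sham were 1.86 (1.77 to 1.96), 4.52 (4.30 to 4.75) and 11.3 (10.8 to 11.9), and no neighbours in the order lay within counting error. The sham level rested on 4 cells. Those in the border macrophage cluster held 1472 of the 1682 sham UMIs, at 82883 CPM. In doubly assigned cells the sham level was 473 CPM (411 to 541), and days 1, 3 and 7 were at 6257, 14471 and 26544 CPM, with ratios of 13.2 (11.6 to 15.2), 30.6 (26.7 to 35.2) and 56.2 (49.0 to 64.6). The order of the days was thus the same in both sets, and the size of the difference was set by a handful of sham cells. By the second clustering the sham level was again 473 CPM and that of day 7 was 38851 CPM. With a limit of 6000 genes per cell instead of 3000, the day 1 log2 ratio of all microglia-like cells was 0.08 instead of 0.89.

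Apoe UMIs were also found in nearly every class. Endothelial-like cells, which should make little Apoe, held 1266, 1779, 1182 and 1583 CPM in sham and at days 1, 3 and 7. After every cell was thinned to 1000 UMIs, 57.8%, 71.9%, 60.4% and 67.5% of endothelial-like cells held an Apoe UMI, against 26.9%, 66.7%, 64.1% and 65.1% of microglia-like cells. The share of cells with an Apoe UMI thus did not separate microglia from a class that should lack the gene, whereas the level did at days 1, 3 and 7. In sham, doubly assigned microglia-like cells lay below the endothelial-like level. The C1q genes were at 0.192% of their microglia-like level in endothelial-like cells at day 7, and Apoe at 3.89%. In astrocyte-like cells, a known source, Apoe was at 12647, 13421, 35122 and 19307 CPM. Border macrophage-like cells held 66800 CPM in sham, 39935 at day 1, 78375 at day 3 and 73954 at day 7. Their level at day 1 was 0.598 (0.584 to 0.612) of that in sham, while at days 3 and 7 it was 1.17 and 1.11 of it. Border macrophages exceeded microglia 18.6-fold in sham, 5.99-fold at day 1, 4.84-fold at day 3 and 1.82-fold at day 7. The sham fold rested on the 4 microglia-like cells of the other cluster and was larger against doubly assigned cells, which held 473 CPM. At day 7 doubly assigned cells held 26544 CPM by the first and 38851 CPM by the second clustering.

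**Figure D1:**
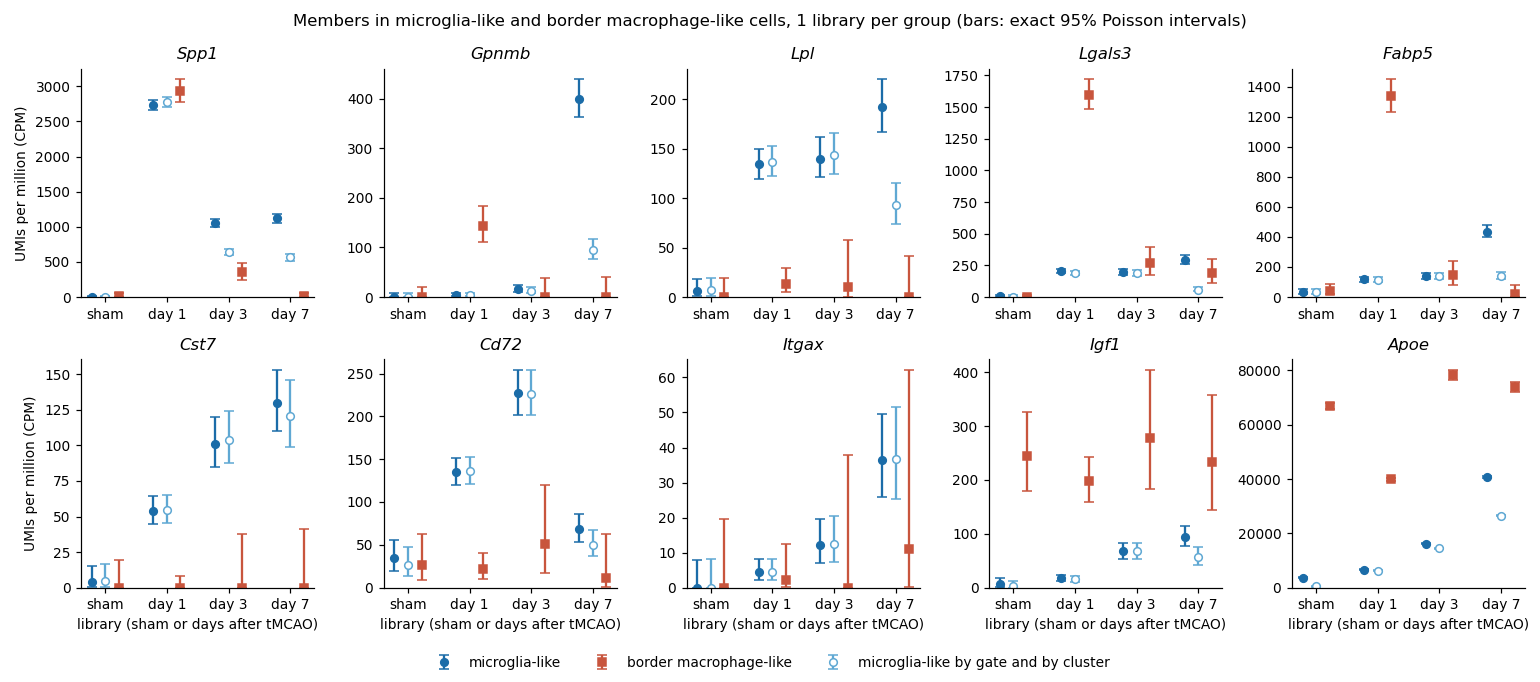
Level of each of the 10 members (vertical axis, CPM) in the sham library and the libraries of days 1, 3 and 7 after tMCAO (horizontal axis). Filled circles are all microglia-like cells, open circles the microglia-like cells by gate and by cluster, squares border macrophage-like cells, and bars exact 95% Poisson intervals of 1 library each. Gpnmb at day 7 drops from 400 to 94.9 CPM between the filled and the open circle, while Cst7 and Cd72 keep their courses. By the second clustering Gpnmb was at 375 CPM.

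Lpl, the lipase that frees fatty acids from lipoproteins, was near the limit of detection in sham with 3 UMIs in 142 microglia-like cells (6.40 CPM). It was at 134 CPM (119 to 150) at day 1, 140 (121 to 162) at day 3 and 192 (167 to 220) at day 7, which gave ratios to sham of 20.9 (7.09 to 102), 21.9 (7.37 to 107) and 30.0 (10.1 to 147). Days 1 and 3 lay within counting error of each other. The further step at day 7 was not seen in doubly assigned cells, which were at 137, 144 and 92.7 CPM (73.8 to 115) or, by the second clustering, at 94.7 CPM (76.8 to 116) at day 7, while the 16 cells of the border macrophage cluster were at 860 CPM. Border macrophage-like cells held almost no Lpl, with 0, 13.3, 10.3 and 0 CPM, and microglia exceeded them 10.0-fold (4.56 to 27.6) at day 1. Vascular smooth muscle-like cells were the main other source and held 79.5%, 18.6%, 44.8% and 53.2% of all Lpl UMIs in sham and at days 1, 3 and 7.

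Fabp5, which carries fatty acids inside the cell, was at 32.0 CPM in sham, 117 at day 1, 140 at day 3 and 436 (398 to 477) at day 7 in microglia-like cells. The ratios were 3.65 (2.17 to 6.61), 4.37 (2.58 to 7.97) and 13.6 (8.18 to 24.5), with days 1 and 3 within counting error. In doubly assigned cells the levels were 33.8, 116, 140 and 142 CPM (118 to 169), without the excess of day 7 over day 3. By the second clustering day 7 was at 414 CPM (375 to 455), so this excess depended on which cells were counted. Of the 479 UMIs of day 7, 203 were in the 16 cells of the border macrophage cluster and 149 in the 33 cells outside both clusters. Oligodendrocyte-like cells held 1304, 1293, 1125 and 478 CPM of Fabp5, above microglia-like cells in every library, and 89.6%, 73.2%, 80.2% and 69.3% of all its UMIs. Neuron-like cells were also above microglia-like cells in every library, at 576, 652, 745 and 1071 CPM. What part myelin-forming cells had in the microglial value was not tested. In border macrophage-like cells Fabp5 was at 42.6, 1339, 144 and 22.3 CPM, 31.4-fold (15.8 to 73.1) above sham at day 1 and 3.37-fold (1.32 to 9.28) at day 3. Unresolved macrophages held more at day 1, at 2891 CPM, and monocyte-like cells were at 811 CPM on that day.

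Gpnmb, a membrane glycoprotein of lysosomes in lipid-laden macrophages, was the latest member. Sham microglia-like cells held 0 UMIs, a floor of 3 counts being 6.40 CPM. There were 11 UMIs at day 1 (4.81 CPM), 22 at day 3 (16.6 CPM) and 439 at day 7 (400 CPM, 363 to 439). Day 7 was at least 62.4-fold above sham and 24.0-fold (15.7 to 38.7) above day 3. As the mean of single cells in place of their sum, the day 7 log2 ratio was 4.33 instead of 5.36. The 439 UMIs lay in 31 of 311 cells. Of these UMIs, 341 were in the 16 cells of the border macrophage cluster, at 2484 CPM (2227 to 2762). Doubly assigned cells held 85 UMIs, or 94.9 CPM (75.8 to 117), still at least 14.1-fold above sham. At day 3 they were at 12.6 CPM (7.18 to 20.4). By the second clustering day 7 was at 375 CPM (338 to 414). The late course was thus seen in all 3 sets. In border macrophage-like cells by gate the course was another, with 0 CPM in sham, 144 at day 1 in 10 of 76 cells, and 0 at days 3 and 7, where 3 counts would be 30.8 and 33.4 CPM. With clusters in place of gates this turned, and the log2 ratio of day 7 to sham in border macrophages was 5.90 instead of 0. At day 1 gated border macrophages exceeded microglia 30.0-fold (15.7 to 63.0). Unresolved macrophages held 56 UMIs in 7 of 61 cells at day 1, and 45 UMIs in 1 of 22 cells at day 7. Outside macrophages, oligodendrocyte progenitor-like cells were at 66.5 CPM (46.8 to 91.6) at day 1, with 37 of the 229 Gpnmb UMIs of that library, and at 176 CPM at day 3 on 12 UMIs in 2 cells. Endothelial-like cells were at 0.526 CPM at day 7.

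Lgals3, a galectin of phagocytes that binds damaged lysosomes, had 2 UMIs in sham microglia-like cells (4.27 CPM) and stood at 204 CPM (186 to 224), 195 (172 to 221) and 296 (264 to 330) at days 1, 3 and 7. The ratios to sham were 47.9 (13.2 to 396), 45.8 (12.5 to 380) and 69.3 (19 to 575). Doubly assigned cells gave another late course, at 189 CPM (171 to 208), 191 (167 to 216) and 59.2 (44.3 to 77.4), and by the second clustering day 7 was at 192 (166 to 221). Whether day 7 was above, level with or below the other injured days therefore depended on the microglia-like cells that the clusters placed elsewhere. Border macrophage-like cells held 0, 1597, 267 and 189 CPM, and at day 1 they exceeded microglia 7.82-fold. Their day 3 and day 7 levels rested on 2 cells each. The unresolved macrophages of day 1 were higher still, at 3205 CPM. Monocyte-like cells, where the gene is usual, held 2257, 3828, 1902 and 2194 CPM, and neutrophil-like cells held 23.0% of the Lgals3 UMIs at day 3. Vascular smooth muscle-like cells were at 25.5, 81.9, 47.6 and 26.4 CPM, above the sham microglia-like level in each library, and endothelial-like cells at 1.98, 9.23, 5.50 and 1.84 CPM.

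Cst7, an inhibitor of lysosomal cathepsins, had most of its UMIs in microglia-like cells. Microglia-like cells held 2 UMIs in sham (4.27 CPM), then 53.8 CPM (44.7 to 64.2), 101 (84.9 to 120) and 130 (110 to 153). The ratios were 12.6 (3.42 to 105), 23.8 (6.45 to 198) and 30.5 (8.29 to 254), and each day exceeded the one before it beyond counting error. In doubly assigned cells the levels were 4.50, 54.6, 104 and 121 CPM, and the last step from 104 (87.4 to 124) to 121 (98.9 to 146) lay within counting error. The second clustering put day 7 at 140 CPM (118 to 164). Border macrophage-like cells held 0 UMIs in all 4 libraries, where 3 counts would be 16.0, 6.66, 30.8 and 33.4 CPM. The 16 cells of day 7 that carried most Gpnmb held 1 UMI of Cst7. Microglia-like cells held 86%, 80.7% and 67.8% of all Cst7 UMIs at days 1, 3 and 7, and T or NK-like cells, which use the gene as well, were the next named class at days 3 and 7 with 5.42% and 11.4%. T or NK-like cells held 3, 9 and 24 Cst7 UMIs at days 1, 3 and 7. These were out of 77188, 183326 and 371948 UMIs of that class, a level below that of microglia-like cells but of the same order.

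Spp1, which encodes the secreted matrix protein osteopontin, was the earliest member. It had 0 UMIs in sham microglia-like cells, 6252 at day 1 (2734 CPM, 2667 to 2803), 1396 at day 3 (1056 CPM, 1001 to 1113) and 1228 at day 7 (1118 CPM, 1056 to 1182). These were at least 427-fold, 165-fold and 175-fold above the sham floor, and day 3 was 0.386 (0.364 to 0.409) of day 1. A minority of cells carried it. A Spp1 UMI was found in 30.7%, 12.9% and 12.2% of microglia-like cells, against 3.75%, 0.783% and 0.432% of endothelial-like cells, with median depths of 3401, 2558 and 2723 UMIs in the first and 1848, 2205 and 1987 in the second class. In doubly assigned cells the levels were 2774, 635 and 564 CPM, since 7 cells of day 3 and 16 of day 7 in the border macrophage cluster held 586 and 709 UMIs. By the second clustering day 7 was at 993 CPM (933 to 1056). The peak at day 1 stood in all 3 sets.

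Border macrophage-like cells by gate had a like course for Spp1 but a steeper decline, with 21.3 CPM in sham, 2935 at day 1, 349 at day 3 and 11.1 at day 7. Day 1 was 138-fold (53.6 to 506) above sham and day 3 16.4-fold, the latter on 34 UMIs in 3 cells. The single UMI of day 7 gave 0.523 of sham with an interval from 0.0106 to 5.28. The steep decline was not seen with clusters in place of gates, where the log2 ratio to sham in border macrophages was 6.0 at day 3 and 5.27 at day 7, instead of 3.52 and -0.57. At day 1 unresolved macrophages held more Spp1 than either named class, at 6656 CPM, and monocyte-like cells were at 2117 CPM. Vascular and connective tissue cells were large sources too. Fibroblast-like cells held 1697, 5108, 5695 and 1370 CPM and pericyte-like cells 102, 2027, 324 and 913 CPM, so that pericytes gave 45.3% of the Spp1 UMIs of the day 7 library. Macrophage classes together gave 49.8%, 46.5% and 40.1% of them at days 1, 3 and 7. In endothelial-like cells Spp1 was at 56.5 CPM at day 1, 2.07% of the microglia-like level, where the C1q genes were at 0.390% of theirs.

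Cd72, an inhibitory receptor shared by B cells and macrophages, was highest at day 3. Microglia-like cells were at 34.1 CPM (19.5 to 55.4) in sham, 135 (120 to 151) at day 1, 227 (202 to 254) at day 3 and 68.3 (53.7 to 85.6) at day 7. The ratios were 3.96 (2.40 to 7.02), 6.65 (4.03 to 11.8) and 2.0 (1.15 to 3.68), and day 7 was 0.301 of day 3. Doubly assigned cells gave the same course, at 27.0, 136, 226 and 50.2 CPM, though the day 7 ratio of 1.86 had an interval of 0.968 to 3.86, and by the second clustering day 7 was at 51.7 CPM. With unresolved macrophages counted in, the log2 ratios were 0.54, 1.27 and -0.24 instead of 1.72, 2.42 and 0.83, as 1 of the 7 unresolved sham cells held 26 Cd72 UMIs. Border macrophage-like cells stayed at 26.7, 22.2, 51.4 and 11.1 CPM, within counting error of sham, and were exceeded 6.09-fold (3.27 to 12.8) by microglia at day 1. B-like cells held 39.6%, 2.11%, 2.05% and 14.6% of the UMIs of the gene in sham and at days 1, 3 and 7. These were 36, 8, 7 and 23 of the 43888, 19340, 28327 and 87485 UMIs of that class. By level B-like cells were thus above microglia-like cells in each library, though on few UMIs and only slightly at day 3.

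Itgax, the integrin alpha subunit CD11c of dendritic cells and of some microglia, was the lowest member. It was at 0, 4.37 (2.10 to 8.04), 12.1 (6.92 to 19.7) and 36.4 CPM (26.0 to 49.6) in microglia-like cells, from 0, 10, 16 and 40 UMIs. Day 7 was at least 5.69-fold above the sham floor and 3.01-fold (1.65 to 5.75) above day 3. Sham and day 1 lay within counting error. Doubly assigned cells held 33 of the 40 UMIs, at 36.8 CPM (33.2 by the second clustering), and kept this order. Border macrophage-like cells held 0, 2.22, 0 and 11.1 CPM, at or under their floors.

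Igf1, a growth factor that microglia and border macrophages secrete, was higher in border macrophages than in microglia from the outset. Sham border macrophages were at 245 CPM and sham microglia at 6.40 CPM (1.32 to 18.7), a 38.3-fold (12.3 to 193) excess. Microglia-like cells were at 17.1 (12.1 to 23.3), 67.3 (54.1 to 82.9) and 94.6 CPM (77.3 to 115) at days 1, 3 and 7, with ratios of 2.67 (0.847 to 13.5), 10.5 (3.49 to 52.0) and 14.8 (4.92 to 72.9). Border macrophages did not leave counting error, at 198, 277 and 234 CPM. Their excess over microglia was thus 11.6-fold, 4.12-fold and 2.47-fold (1.47 to 3.98) at days 1, 3 and 7. In doubly assigned cells the microglial levels were 2.25, 15.7, 67.5 and 56.9 CPM (42.4 to 74.9), with days 3 and 7 within counting error, and by the second clustering day 7 was at 88.8 CPM (71.5 to 109). Astrocyte-like cells held 165 CPM and 25.8% of the Igf1 UMIs at day 3. At day 1 neuron-like cells were at 20.7 CPM, above the 17.1 CPM of microglia-like cells, with 14.5% of the Igf1 UMIs. Fibroblast-like cells held 10.4% of them on that day. Neuron-like cells were at 0 CPM at days 3 and 7, and endothelial-like cells at 0.958, 0.433 and 0.702 CPM at days 1, 3 and 7.

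**Figure D2:**
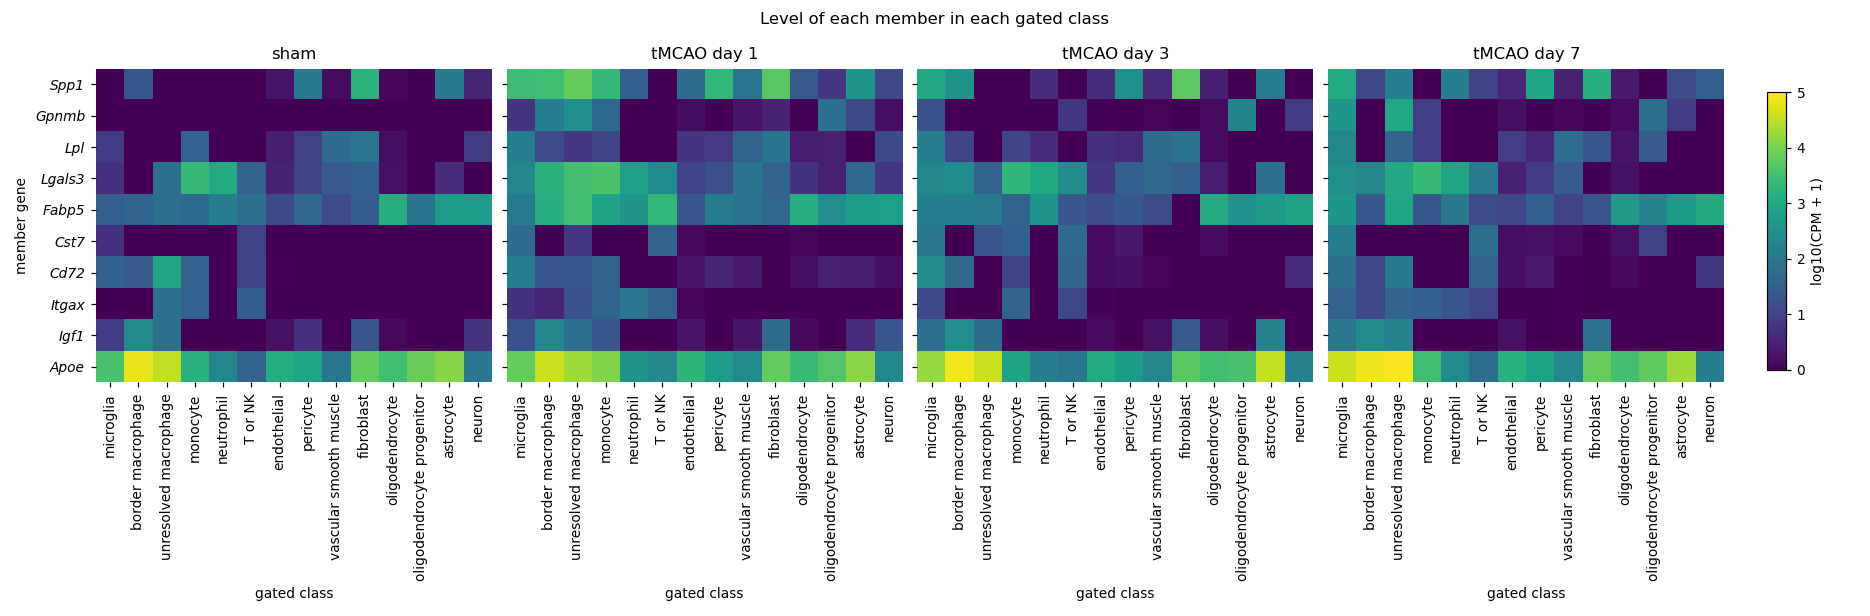
Level of each member (rows) in each gated class (columns) of the 4 libraries (panels), as log10(CPM + 1) on a colour scale from 0 to 5. Cst7 is bright mainly in the microglia column, Itgax is low and at least as bright in the monocyte column in sham and at days 1 and 3, Spp1 also in the fibroblast and pericyte columns, Fabp5 in the oligodendrocyte column and Apoe in most columns.

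Counted by a 2-fold limit after adding 10 CPM to both levels, 6 of the 10 members were higher than sham in microglia-like cells at day 1, 10 at day 3 and 9 at day 7, and 0 were lower. Of all genes of at least 100 CPM in 1 of both libraries, 16.9% were higher by that limit at day 1, 4.25% at day 3 and 3.01% at day 7. The members that reached 100 CPM were 6, 7 and 7, and 5, 7 and 7 of them were higher. Since the members were chosen on this contrast, nothing is read from these counts. The exceptions at day 1 were Gpnmb, Itgax, Igf1 and Apoe, and the exception at day 7 was Cd72. Doubly assigned cells gave 8, 10 and 9 by either clustering. The median log2 ratio of the 10 members was 1.66, 2.33 and 3.45, beside 0.08, 0.07 and 0.03 over the 1636, 1554 and 1530 genes of at least 100 CPM, a limit that 4, 3 and 3 of the members did not reach. In border macrophage-like cells 5, 4 and 2 members were higher, or 4 of 6, 3 of 5 and 1 of 3 of those that reached 100 CPM, with 13.7%, 7.91% and 10.7% of all such genes. The counts include Lpl at day 3 and Itgax at day 7 on 1 UMI each, within counting error of sham. They also include Lpl at day 1, at 13.3 CPM on 6 UMIs in 3 cells, where 3 counts in sham would be 16.0 CPM. Under alternatives the counts at days 3 and 7 ranged from 2 to 5 and from 1 to 4, and the members' medians were 0.76, 0.49 and 0.

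A list of other injury-associated genes with 22 members in the tables was set beside them. Of these, 11, 11 and 9 were higher than sham at days 1, 3 and 7 in microglia-like cells and 0 lower, with medians of 0.94, 1.16 and 0.68. Among its genes of at least 100 CPM, 9 of 19, 8 of 19 and 6 of 18 were higher, beside the 16.9%, 4.25% and 3.01% of all such genes. With clusters in place of gates the day 7 count of 9 fell to 5. At day 7 its genes with the largest ratios were Axl, a receptor for dying cells (0 to 47.3 CPM from sham to day 7), the lysozyme gene Lyz2 at 4.92-fold (4.39 to 5.53), Ank at 4.27-fold (1.54 to 16.4, from 8.53 CPM in sham), Anxa5 at 3.35-fold and the lipid droplet gene Plin2 at 3.10-fold. Lyz2 was at 18561 CPM in the 16 cells of the other cluster, and at 241 CPM in sham and 1279 CPM at day 7 in doubly assigned cells. Trem2, the lipid receptor upstream of this set, was at 1.05-fold (0.976 to 1.13), its adaptor Tyrobp at 0.957 and Csf1 at 0.853. Of 9 homeostatic genes, 4, 0 and 3 were lower by 2-fold at days 1, 3 and 7, against 13.9%, 2.96% and 2.35% of all genes, and none were higher. In the same microglia-like cells, 8 genes of infiltrating macrophages summed to 107 CPM in sham. Their sum was 282, 253 and 430 CPM at days 1, 3 and 7. The part of such cells in the members' levels was not tested.

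The number of members found in a cell was counted at equal depth. In microglia-like cells thinned to 1000 UMIs, of which 104, 433, 270 and 238 were deep enough and 38, 98, 109 and 73 were left out, 1.92%, 14.3%, 14.1% and 23.5% (18.3 to 29.4) held a UMI of 3 or more members in sham and at days 1, 3 and 7. Over 20 draws of the thinning the medians were 0.962%, 13.6%, 15% and 22.3%. In doubly assigned cells they were 0.505%, 13.3%, 14.9% and 10.7% (8.16 to 12.8 over the draws), so that day 7 did not exceed day 3 there. The share rises with the level of each member, and a value expected without association was not computed. With the second clustering the share at day 7 was 22.0%, in 1 draw. Without Apoe, whose UMIs were also common in endothelial-like cells, the shares were 0%, 6.0%, 6.67% and 13%. Of the 238 cells of day 7, 79 held none of the 10 members and 12 held 5 or more.

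The most abundant members were also described by their spread over cells. Of the thinned Spp1 UMIs, 91.1% were in the 44 highest of 433 cells at day 1, 99.5% in the 27 highest of 270 at day 3 and 98.9% in the 24 highest of 238 at day 7. At days 3 and 7 only 28 and 26 cells held any, so those shares were high by construction. For Apoe the 44, 27 and 24 highest cells held 57.2%, 54.1% and 59.1%. Its thinned UMIs numbered 2509, 4173 and 6891 against 930, 191 and 179 of Spp1, so the shares were not matched for level. The median cell held 2, 1 and 2 Apoe UMIs while the highest held 102, 167 and 430. In sham 95.6% of the Apoe UMIs were in 11 of 104 cells. At day 7 all 19 thinned cells with Gpnmb held Apoe and 14 held Fabp5, against 62.1% and 13.2% of the cells without Gpnmb. Among doubly assigned cells a median of 6 held Gpnmb over 20 draws (4 to 8), against a median of 18 over all microglia-like cells. Some pairs were not seen together more often. Cd72 was found in 1 of the 19 cells with Gpnmb (5.26%) and in 6.39% of those without, too few cells to compare. At day 1 Cst7 was found in 5 of the 95 cells with Spp1 (5.26%) and in 5.62% of those without. At day 1 Apoe was found in 58.3% of the cells with Cst7 and 67.2% of those without. These 19 cells had a median of 7846 UMIs before thinning, against 4029 in the other cells.

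**Figure D3:**
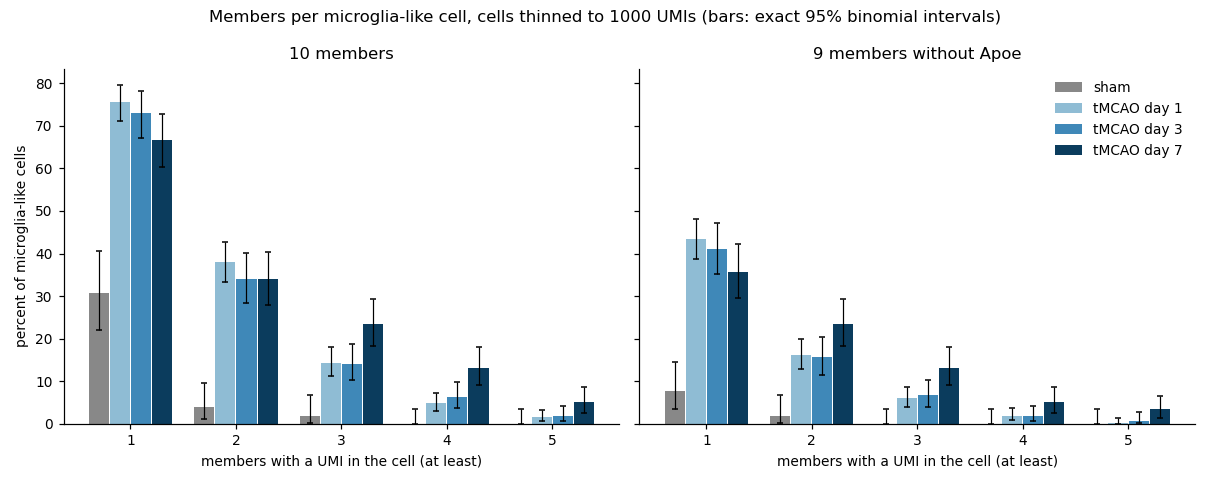
Share of microglia-like cells, thinned to 1000 UMIs each, by the number of members with a UMI, in sham and at days 1, 3 and 7. The share of cells with 3 or more members is 1.92% in sham and 14.3%, 14.1% and 23.5% at days 1, 3 and 7.

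Cells with and without a UMI of P2ry12, the purinergic receptor that homeostatic microglia carry, were compared within each library. In sham Apoe was the member whose ranges over draws did not overlap between the 2 kinds of cell. Since a thinned cell has a fixed total, and cells without a P2ry12 UMI include those where it was missed by chance, the split is a description. Among doubly assigned cells of the first clustering, Apoe was higher in cells without P2ry12, 3.13-fold in sham (1.94 to 5.61 over 20 draws), 3.15-fold at day 3 (2.65 to 4.15) and 5.68-fold at day 7 (4.06 to 11.4). Spp1 was higher 8.59-fold at day 1 (2.29 to 21.3) and 5.13-fold at day 7 (2.27 to 11). Lgals3 was higher 5.32-fold at day 1 (3.02 to 28.5) and 16.9-fold at day 3 (5.85 to 65.5). Cst7 did not follow the split at day 1, with 1.19-fold (0.567 to 4.22), and was at 2.52-fold (1.43 to 5.30) at day 3 and 2.42-fold (0.933 to 5.11) at day 7. The ranges over draws also included 1 for Apoe at day 1 (1.49-fold, 0.999 to 2.41), Lpl at day 1 (0.851 to 3.60), Cd72 at day 1 (0.846 to 6.28) and Fabp5 at days 3 (0.857 to 4.32) and 7 (0.931 to 2.64). Over all microglia-like cells the sham ratio of Apoe was 38.7 (4.99 to 55.3), again through the few cells of the border macrophage cluster. In 1 draw over all microglia-like cells, those without P2ry12 also carried more of a list of 8 infiltrating macrophage genes, at 533 against 112 CPM at day 7, and border macrophage markers at 706 against 0 CPM in sham. The part of such cells in the split was not tested.

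**Figure D4:**
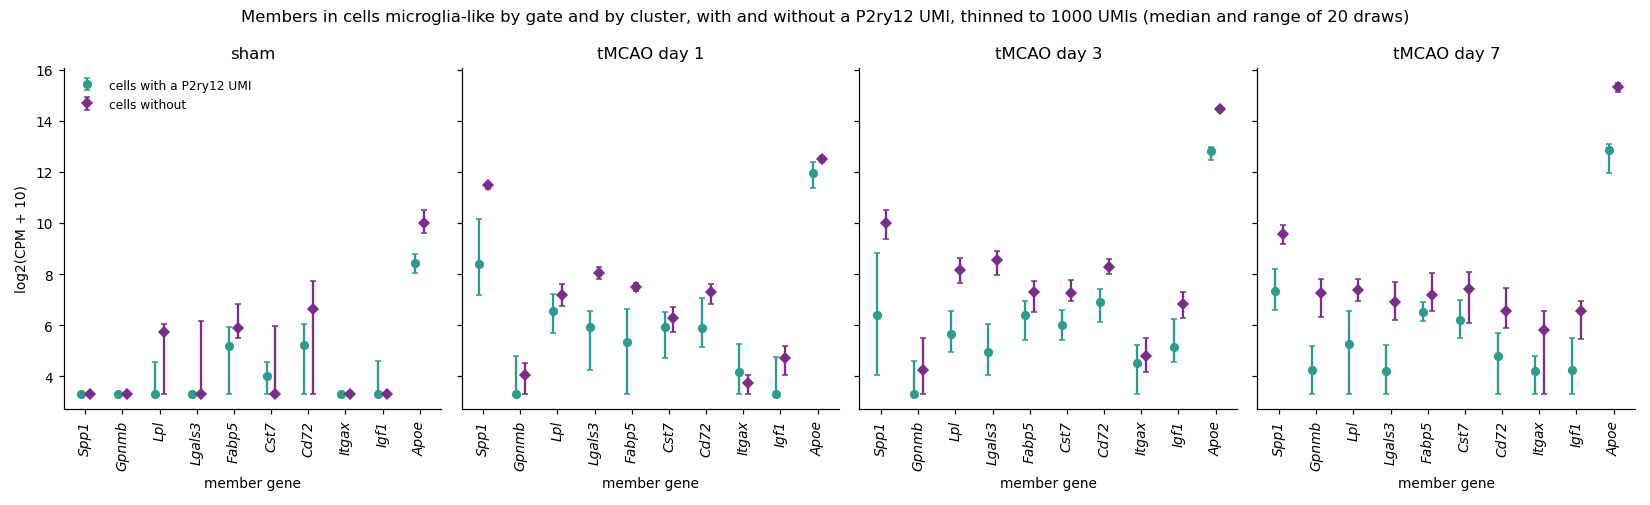
Level of each member, as log2(CPM + 10), in doubly assigned microglia-like cells with (circles) and without (diamonds) a P2ry12 UMI, thinned to 1000 UMIs, in the 4 libraries. Points are medians and bars the range of 20 draws. Apoe is higher without P2ry12 by a median of 3.13-fold in sham and 5.68-fold at day 7, while the bars of Cst7 overlap at day 1.

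Seen from the whole library, the members differed in how much of their UMIs came from macrophages. The microglia-like, border and unresolved macrophages together held 85.0%, 89.2% and 51.6% of the Cd72 UMIs at days 1, 3 and 7, 86.7%, 81.3% and 67.8% of Cst7, 57.6%, 48.9% and 93.6% of Gpnmb, 56.2%, 52.0% and 79.2% of Igf1 and 46.7%, 53.3% and 67.2% of Itgax. For Apoe the share grew from 23.3% in sham to 25.1%, 33.7% and 42.4%. For Lgals3 it was 52.1%, 20% and 30.1%, for Lpl 49.4%, 34.3% and 22.9% and for Fabp5 6.54%, 2.71% and 10.7%.

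**Figure D5:**
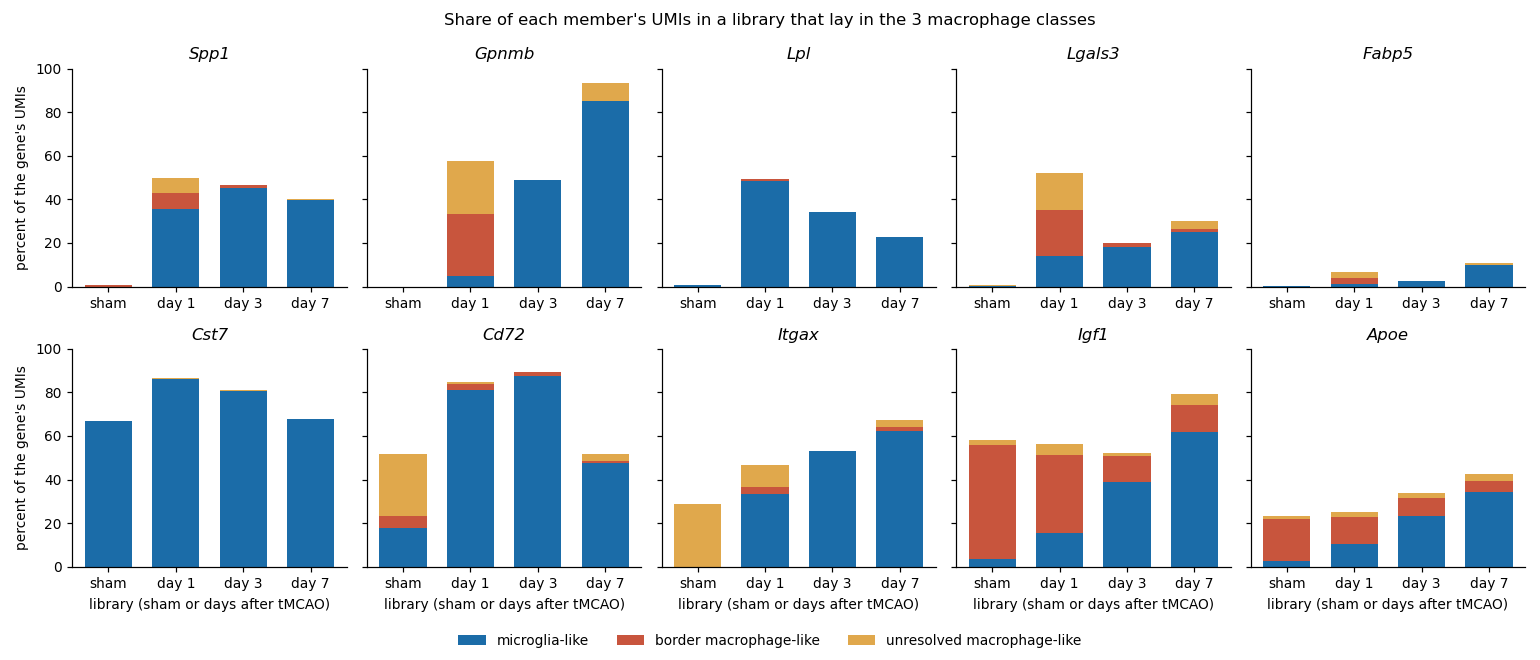
Percent of all UMIs of each member in a library (vertical axis) that lay in microglia-like, border macrophage-like and unresolved macrophage-like cells (stacked bars), for sham and days 1, 3 and 7. Gpnmb reaches 93.6% at day 7 and Fabp5 stays at or below 10.7%.

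The genes whose levels ran most like each member were sought over 39 sums of a class in a library with at least 50 cells, which share libraries and depth, so that the correlations are descriptions. Cd72 ran like Cd79b (r = 0.973) and Ccl4 (0.946), and Cst7 most like Gm26522 (0.902), Cd72 (0.895) and Sla (0.885). Gpnmb ran like Apoc4 (0.900) and Ms4a7 (0.844), Itgax like Cd200r4 (0.875), Igf1 like Mmp19 (0.866) and Apoe like the lysosomal peptidase gene Tpp1 (0.866). For Spp1, Lpl, Lgals3 and Fabp5 the closest genes were Renbp (0.808), Gem (0.778), AB124611 (0.835) and Pak1 (0.754). By rank correlation in place of r, 0 to 2 of the 3 closest genes were the same. Itgax reached 20 CPM in 1 of the sums and Gpnmb and Cst7 in 4.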

How the data were processed

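Single-cell RNA-seq libraries of sham and of days 1, 3 and 7 after tMCAO, 1 per group, were analysed. The deposited matrices hold unscaled UMI counts of each gene in each called cell, made by the authors with Cell Ranger 4.0.0 per the file headers. The submitters' processing notes name Cell Ranger 3.0.1, Seurat 4.1.2 and a human build, but 30934 of 31053 gene identifiers (99.6%) matched the mouse GENCODE vM21 annotation, from which positions were taken.

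The members, marker lists and gene lists were chosen with earlier results of these data known. Cells outside 200 to 3000 genes or above 10% mitochondrial UMIs were removed. A cell's class was the one with the highest share of marker UMIs among 18 marker lists, relative to cells with at least 3 markers, if at least 2 markers were detected and no second class reached 0.500 of its score. Of 44360 cells, 42167 received a class. Macrophage-lineage cells with more microglia than border macrophage markers were microglia-like, and those with at least 2 border macrophage markers and more of these than of microglia markers were border macrophage-like. No per-cell class labels were used here.

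UMIs were summed per class and library and given as CPM with exact Poisson intervals. Ratios had exact conditional intervals and shares exact Clopper-Pearson intervals at 95%, all for counting error only. A ratio to 0 UMIs was taken to a floor of 3 counts per summed class and called at least so many fold. With 1 library per group no test was made. For the comparison between cells, each was thinned to 1000 UMIs. Clusters for the alternative were computed with scanpy 1.11.5 on 2000 variable genes without the members (30 components, 20 neighbours found with scikit-learn 1.9.0, edge weights from umap-learn 0.5.12, Leiden at resolution 1 with igraph 0.11.9). The second clustering weighted the same edges by shared neighbours. Doublets were kept in the main result. Scrublet marked under 0.500% of cells in 3 of 4 libraries, so its own threshold had not worked there, and removing the highest scores up to 0.800% per 1000 cells was added. The 5 largest and 3 smallest day 7 ratios of the other injury-associated list were named. Python 3.11.15, numpy 2.4.6, scipy 1.17.1, pandas 2.3.3 and matplotlib 3.10.9 were used, and the interval calculations were tested on simulated data. The alternatives were other limits on genes, mitochondrial share and markers, doublet removal, clusters, scaling, prior count, averaging, background subtraction and thinning. Agreement of gate and cluster under either clustering, doublet removal by score and leaving out Apoe were added after seeing the data. Some genes that these rules select are not reported here.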

Additional observations from a re-analysis of the deposited data

Results flagged for a closer look

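Apoe went opposite ways in the macrophage classes at day 1. In border macrophage-like cells its level was 0.598 of sham (0.584 to 0.612), from 66800 to 39935 CPM, while in microglia-like cells it was 1.86 of sham (1.77 to 1.96), from 3588 to 6669 CPM. The difference between the classes was not tested, as each has 1 library per group. Border macrophage-like cells of day 1 also held the summed C1q genes at 18223 CPM against 25294 in sham and markers of monocytes at 275 against 10.7 CPM. The part of these in the lower Apoe level was not tested. With clusters in place of gates the day 1 log2 ratio in border macrophages was -0.44, and in microglia 2.57. In microglia-like cells it was 0.89 by gates, 0.08 with a limit of 6000 genes per cell and 3.70 in cells to which gate and cluster gave the same class.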

How the results depend on the processing

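The count of members above sham in microglia-like cells ranged over the alternatives from 5 to 9 at day 1, from 7 to 10 at day 3 and stayed at 9 at day 7. None of the single-gene values that were past 2-fold in the main result changed sign. Some values under 2-fold in the main result did, as given above. Examples are Cd72 at day 7 in microglia-like cells with unresolved macrophages counted in, and Spp1 at day 7 in border macrophages with clusters in place of gates. Of 390 single-gene values of microglia-like cells under alternatives 110 were labelled as moved out of the interval of the main value, and of 360 of border macrophage-like cells 109. Members with 0 sham UMIs have a lower bound and no interval, and some of their values were labelled as moved though equal to the main one. An example is Spp1 at day 3, with a log2 ratio of 6.74 in the main result and with cells called by Scrublet removed. The 110 thus overstates the changes. Median-of-ratios scaling, with a day 1 log2 factor of -0.20 in microglia-like cells, raised the day 1 log2 ratio of Apoe from 0.89 to 1.09.

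The other injury-associated genes at day 7 fell from 9 to 5 with clusters and with the mean of single cells. Border macrophage members at day 3 were 2 instead of 4 with clusters. At day 7 they were 4 instead of 2 with clusters, and 1 with 6000 genes per cell, with 3 markers, with the mean of single cells or with members under 20 CPM left out. The share of microglia-like cells with 3 or more members was, in sham, 0% instead of 1.92% with 6000 genes, a 5% mitochondrial limit, clusters, 500 UMIs per cell or without Apoe. At day 1 it was 20.7% with 6000 genes, 10.8% without the highest Scrublet scores, 6.40% at 500 UMIs, 34.1% without thinning and 6.0% without Apoe, instead of 14.3%. At day 3 it was 19.8% with 6000 genes, 6.07% at 500 UMIs, 29.6% without thinning and 6.67% without Apoe, instead of 14.1%. At day 7 it was 9.72% with clusters, 9.69% with gate and clusters both (22.0% with gate and shared-neighbour clusters), 11.3% at 500 UMIs and 13% without Apoe, instead of 23.5%. Fewer UMIs per cell or fewer genes lower the share by construction. For the other settings the cause was not tested.

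No paired analysis was possible because each group has 1 library. Sham microglia-like cells, 142 in number with a median of 1936 UMIs, limit every ratio to sham, and 25 or 26 border macrophage-like cells limit their levels at days 3 and 7. Free RNA and doublets were not removed from the main values.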
